A study of Mus musculus with 16 samples.

Results

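The insulin-like growth factor (IGF) system and the vascular endothelial growth factors were followed through 10 genes in the mouse hippocampus: the ligands Igf1 and Igf2, the receptors Igf1r and Igf2r, the binding proteins Igfbp2, Igfbp4, Igfbp5 and Igfbp6, and Vegfa and Vegfb. These genes were listed by name, and each was read by 1 probe set carrying a single gene symbol, so the 10 probe sets are 10 of the 21780 single-symbol probe sets (19935 genes) that were tested. The study compared wild-type mice with littermates carrying a single working copy of Crebbp, the gene of the CREB-binding protein CBP, a lysine acetyltransferase that is a transcriptional coactivator; these mutants are labelled cbp+/-. Each genotype lived in standard cages or in an enriched environment with tubing, toys and running wheels for 2 weeks, and total RNA of the hippocampus was hybridised to Affymetrix Mouse Gene ST arrays. The title of the series places CBP at the centre of the neurogenesis and cognitive gain that enrichment brings, and the comparisons are those of housing within a genotype, genotype within a housing, and the difference between the housing effects.

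The 4 groups were wild-type mice in standard cages (5 arrays), wild-type mice in enrichment (3 arrays), cbp+/- mice in standard cages (5 arrays) and cbp+/- mice in enrichment (3 arrays). All mice were females aged 3 months on an F2 background of C57BL/6J and DBA. Each array carried equal amounts of hippocampal RNA from 4 animals, 64 animals in all, so an array shows the mean of its pool and no single animal. The tissue was taken at least 16 h after the enriched boxes, which were rearranged every 48 h, had last been changed. Crebbp itself read 9.21 to 9.64 on the log2 scale in wild-type standard cages, 9.18 to 9.35 in wild-type enrichment, 9.35 to 9.88 in cbp+/- standard cages and 9.33 to 9.37 in cbp+/- enrichment. It was therefore not lower on the arrays labelled cbp+/-. In every pair of same-numbered arrays of the 2 genotypes within a housing, the cbp+/- array read higher, as for 1.02% of all probe sets. The gap was smallest for standard-cage replicate 2 (9.42 against 9.41) and largest for standard-cage replicate 4 (9.88 against 9.64). The labels do not say whether its probe set also reads RNA from the mutated copy.

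As background, Igf1 and Igf2 are secreted ligands that signal through the receptor tyrosine kinase Igf1r to the PI3K-Akt and MAP kinase routes. Igf2r, also the cation-independent mannose 6-phosphate receptor, takes up Igf2 for lysosomal breakdown and sorts lysosomal enzymes, and the binding proteins hold the ligands outside cells and set how much reaches the receptor. In the adult brain Igf2 comes largely from the choroid plexus and meninges, and circulating Igf1 and Vegf are known for their part in the hippocampal neurogenesis that follows running.

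No gene of the 10 passed the test in any comparison. Over all 21780 probe sets, limma with Benjamini-Hochberg adjustment called 0 (0%) at an adjusted p under 0.05 in each of the 7 comparisons, so the members' counts of 0 were those of the whole array. At an unadjusted p under 0.05, enrichment against standard cages covered 17.8% of all probe sets in wild-type mice, 3.72% on the lower side, where Igf2r was the only member. In cbp+/- mice it covered 2.82%, with Igf2r among the 1.29% on the lower side and Igfbp6 among the 1.54% on the higher side. The genotype comparison covered 0.987% of probe sets in standard cages, with Igf2 among the 0.5% higher in cbp+/- mice, and 5.23% in enrichment, with no member. Averaged over the genotypes, the housing comparison covered 5.73% of probe sets on the lower side, with Igf1r and Igf2r, and 13.4% on the higher side, with Igfbp6. Averaged over the housings, 1.41% were higher in cbp+/- mice, with Igf2 and Vegfa. The direction of each difference below is therefore given with its values, and none is a called change.

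The 16 arrays fell into sets that cut across the groups. By average-linkage clustering of the arrays, 10 arrays (replicates 1, 2 and 4 of both standard-cage groups and replicates 1 and 2 of both enriched groups) formed 1 set, the replicates 3 of both standard-cage groups formed another, and the replicates 5 in standard cages with the replicates 3 in enrichment formed a set of 4 arrays. Cut into 4 sets, the same clustering left wild-type enriched replicate 3 as a set of its own. Wild-type housing values within the set of 4 arrays thus rest on that array against standard-cage replicate 5. The labels name no batch. The set of 2 holds standard-cage arrays only, so a housing value within a set exists for the set of 10 and the set of 4, and both are given beside the pooled value.

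**Figure D1:**
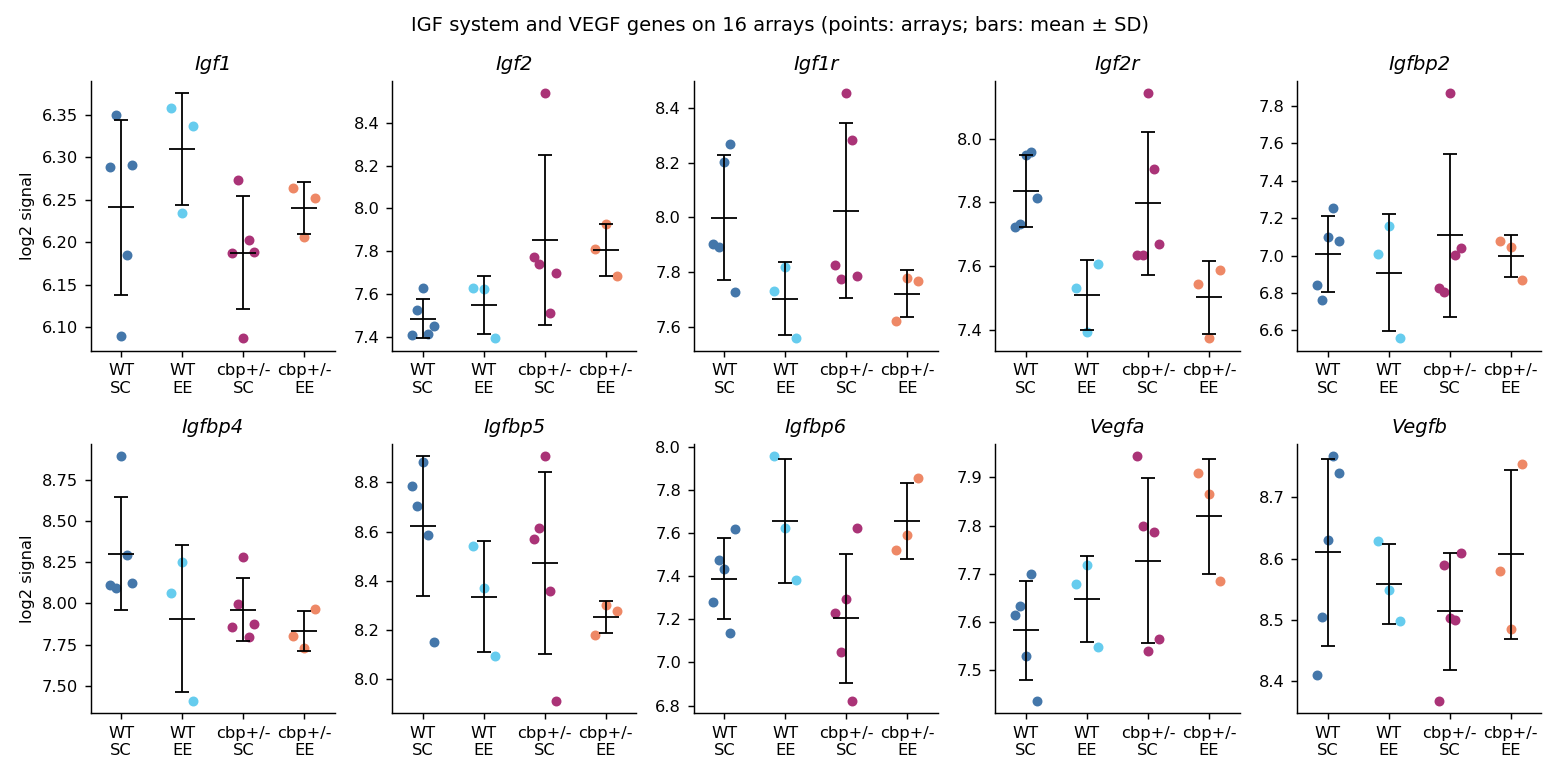
Log2 signal (vertical axis, own range for each gene) of the 10 genes on each array in the 4 genotype-by-housing groups (WT, wild type; SC, standard cage; EE, enrichment); points are arrays and bars are the group mean with its SD (n = 5, 3, 5 and 3). Igf2r is the panel in which every enriched array lies below every standard-cage array of its own genotype.

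Both receptors read lower with enrichment in each genotype, without passing the test. Because Igf2r and Igf1r had the largest negative averaged housing differences among the members over all 16 arrays, the 250 bases before their transcription starts are shown (RefSeq, build GRCm38.p6, written in the direction of transcription), with capitals marking, on either strand, matches to TGACG (the core of the cAMP response element), CACGTG (an E-box) and ACGTG or GCGTG (cores of the hypoxia response element). The Igf2r window is chr17:12769707-12769956 on the minus strand and the Igf1r window is chr7:67952007-67952256 on the plus strand.
Igf2r: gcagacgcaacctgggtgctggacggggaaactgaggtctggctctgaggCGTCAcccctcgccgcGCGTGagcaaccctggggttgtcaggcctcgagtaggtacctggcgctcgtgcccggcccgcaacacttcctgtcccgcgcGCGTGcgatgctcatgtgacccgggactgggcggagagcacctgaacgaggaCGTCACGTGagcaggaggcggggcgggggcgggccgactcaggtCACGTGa
Igf1r: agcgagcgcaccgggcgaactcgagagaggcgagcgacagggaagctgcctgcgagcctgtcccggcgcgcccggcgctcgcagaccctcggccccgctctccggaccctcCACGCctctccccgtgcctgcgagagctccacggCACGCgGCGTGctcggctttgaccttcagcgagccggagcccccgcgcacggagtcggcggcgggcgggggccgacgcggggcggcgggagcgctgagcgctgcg
The Igf2r window held 2 matches to TGACG, 2 to CACGTG, 4 to ACGTG and 2 to GCGTG; every CACGTG contains ACGTG on both strands, and 1 TGACG match overlaps a CACGTG. The Igf1r window held 3 matches to GCGTG. Among 32851 such windows of all genes, 17.8% hold TGACG, 6.02% CACGTG, 16.6% ACGTG and 28.2% GCGTG. The full element TGACGTCA, held by 1.55% of windows, was in none of the 15 windows of the 10 genes. A match is a description of the letters only.

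Igf2r read 7.72, 7.73, 7.95, 7.96 and 7.81 in the 5 wild-type standard-cage pools and 7.53, 7.39 and 7.61 in the 3 enriched pools. In cbp+/- mice it read 7.63, 7.63, 8.14, 7.91 and 7.67 in standard cages and 7.54, 7.37 and 7.59 in enrichment. All 3 enriched arrays lay below every standard-cage array in each genotype. That separation in this direction held for 2% of all probe sets in wild-type mice, 1.25% in cbp+/- mice and 0.184% (40 probe sets) in both. The log2 difference of Igf2r was -0.33 (SE 0.11, unadjusted p = 0.0104, limma adjusted p = 0.175) in wild-type mice and -0.30 (SE 0.11, unadjusted p = 0.0179, limma adjusted p = 0.999) in cbp+/- mice. Averaged over the genotypes it was -0.31 (SE 0.078, limma adjusted p = 0.138). That averaged comparison reached an unadjusted p under 0.05 in 19.1% of all probe sets.

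Within the set of 10 arrays the Igf2r difference was -0.34 in wild-type and -0.27 in cbp+/- mice, and within the set of 4 arrays, with 1 array a group, it was -0.21 and -0.080. The averaged difference passed the test under 3 of the alternatives: with the replicate number as a block (-0.30, limma adjusted p = 0.0415), on the 10 arrays of the largest set (-0.31, limma adjusted p = 0.0462) and with array weights (-0.26, limma adjusted p = 0.00144). Those alternatives called 326, 1941 and 6167 of all 21780 probe sets. The replicate numbers do not pair the housings, so no conclusion is drawn from the call under the replicate block.

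Igf1r, the signalling receptor, read 7.90, 7.89, 8.20, 8.27 and 7.73 in wild-type standard cages against 7.73, 7.82 and 7.56 in enrichment. In cbp+/- mice it read 7.83, 7.78, 8.45, 8.28 and 7.78 against 7.62, 7.78 and 7.77. The high values stood on replicates 3 and 4 of both standard-cage groups, and the groups overlapped in both genotypes. The log2 difference was -0.30 in each genotype (SE 0.16; limma adjusted p = 0.348 in wild-type and 0.999 in cbp+/- mice) and -0.30 averaged (SE 0.11, limma adjusted p = 0.198). Without cbp+/- standard-cage replicate 3 the difference in cbp+/- mice was -0.20. The set of 10 arrays gave -0.25 in wild-type and -0.26 in cbp+/- mice, and the set of 4 gave -0.17 and -0.018.

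**Figure D2:**
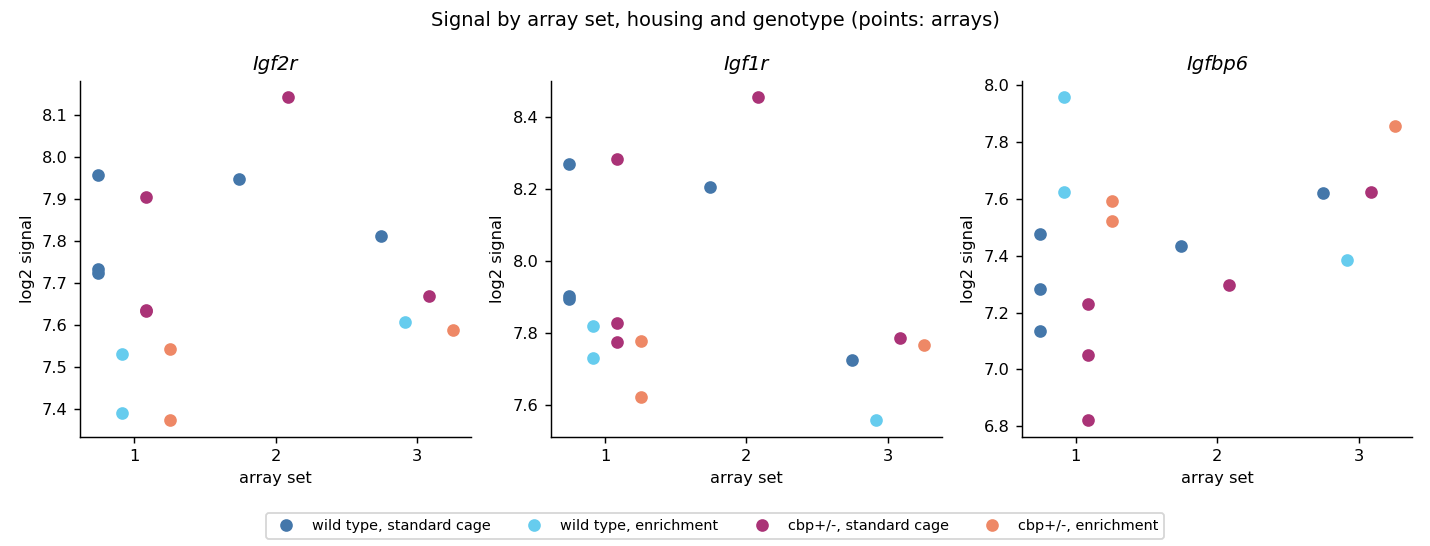
Log2 signal (vertical axis) of Igf2r, Igf1r and Igfbp6 on each of the 16 arrays (points), by array set (horizontal axis) and by genotype and housing (colour). The enriched arrays of Igf2r lie below the standard-cage arrays of their genotype within sets 1 and 3, whereas in set 3 the enriched array of Igfbp6 is the lower one in wild-type and the higher one in cbp+/- mice.

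Igf1r and Igf2r were not separated by genotype. The averaged genotype difference was 0.023 (SE 0.11) for Igf1r and -0.023 (SE 0.078) for Igf2r, with 95% intervals from -0.22 to 0.27 and from -0.19 to 0.14. Igf1r was higher in cbp+/- mice in 4 of the 8 pairs of same-numbered pools and Igf2r in 2 of 8.

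Markers of hippocampal neurons also lay mostly on the lower side with enrichment, none past the test. Their summed linear signal was 13536.4 to 18399.6 over the 16 arrays. Of 13 measured markers, 12 were lower in enrichment in wild-type mice (median -0.099) and 9 in cbp+/- mice (median -0.093), where all probe sets had medians of 0.029 and 0.0096 and 41.6% and 45% of them were lower. With dim probe sets left out (10890 kept) the medians of the array were -0.068 and -0.026, on the same side as the markers, and with median centring they were -0.042 and -0.024. The list's level, the median deviation of its genes from their own means, ran from -0.023 to 0.27 in wild-type standard cages, -0.14 to -0.024 in wild-type enrichment, -0.14 to 0.28 in cbp+/- standard cages and -0.16 to -0.016 in cbp+/- enrichment. In wild-type mice 9 of 11 astrocyte markers (median -0.067), 7 of 9 oligodendrocyte markers (median -0.18), 8 of 10 interneuron markers (median -0.081) and 4 of 10 microglial markers (median 0.037) were lower. The same counts in cbp+/- mice were 7 (median -0.044), 4 (median 0.0024), 6 (median -0.0020) and 3 (median 0.028). The part of these markers in the receptor values was not tested. In pooled tissue, fewer cells of a type and less RNA per cell cannot be told apart.

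The ligand Igf1 varied little. It read 6.29, 6.35, 6.09, 6.19 and 6.29 in wild-type standard cages, 6.36, 6.23 and 6.34 in wild-type enrichment, 6.19, 6.27, 6.09, 6.20 and 6.19 in cbp+/- standard cages and 6.26, 6.21 and 6.25 in cbp+/- enrichment. All 16 values lay within 0.27 log2 units, the smallest range of the 10 genes. Igf1 was also the dimmest member, at the 43.1 percentile of the mean signals of all probe sets, where the others stood at 58.2 to 85.5. The filter on dim probe sets removed it. Whether its low signal narrowed the range was not tested. The housing difference was 0.069 (SE 0.059, 95% interval -0.058 to 0.20, limma adjusted p = 0.565) in wild-type mice and 0.053 (SE 0.059, 95% interval -0.074 to 0.18, limma adjusted p = 0.999) in cbp+/- mice. The wild-type value turned to -0.0069 with quantile normalisation and -0.0027 with median centring, so Igf1 had no settled direction with enrichment. The values in wild-type and cbp+/- mice were 0.022 and 0.014 within the set of 10 arrays and 0.045 and 0.063 within the set of 4. Its genotype difference was -0.061 averaged over the housings (SE 0.042, limma adjusted p = 0.999), and it was lower in cbp+/- mice in 7 of 8 same-numbered pairs. At least 7 of 8 lower pairs were found for 5.12% of all probe sets.

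The ligand Igf2 read higher in cbp+/- mice in 8 of 8 same-numbered pairs, as did 1.02% of all probe sets. It read 7.41, 7.52, 7.63, 7.41 and 7.45 in wild-type standard cages against 7.77, 7.74, 8.54, 7.51 and 7.70 in cbp+/- standard cages. In enrichment it read 7.63, 7.62 and 7.39 in wild-type against 7.81, 7.93 and 7.68 in cbp+/- mice. The 3 cbp+/- enriched arrays lay above all 3 wild-type ones, as for 3.53% of probe sets, and in standard cages 4 of 5 cbp+/- arrays lay above every wild-type array.

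The log2 difference of Igf2 between genotypes was 0.37 in standard cages (SE 0.15, unadjusted p = 0.0241, limma adjusted p = 1.00) and 0.26 in enrichment (SE 0.19, limma adjusted p = 0.937). Averaged over the housings it was 0.31 (SE 0.12, unadjusted p = 0.0193, limma adjusted p = 0.999), in a comparison where 3.91% of all probe sets reached an unadjusted p under 0.05. Without cbp+/- standard-cage replicate 3, the array at 8.54, the standard-cage difference was 0.20 and the averaged one 0.23. The differences within the set of 10 arrays were 0.23 in standard cages and 0.24 in enrichment, and within the set of 4 they were 0.25 and 0.29. Housing differences of Igf2 were 0.063 (SE 0.17) in wild-type and -0.045 (SE 0.17) in cbp+/- mice, and the latter was 0.13 without that array. They were 0.18 and 0.19 within the set of 10 arrays and -0.058 and -0.014 within the set of 4, so Igf2 had no settled direction with housing.

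The array at 8.54 also carried the highest choroid plexus signal. Ttr, the transthyretin gene of that epithelium, read 12.69 there and 7.14 to 10.90 on the other arrays, and Kl read 8.21 there and 6.50 to 7.004 elsewhere. The level of the 14 measured choroid plexus markers was 0.71 on that array and -0.14 to 0.040 on the other 15. Their summed linear signal ran from 773.6 to 2636.43 in wild-type standard cages, 828.73 to 1416.57 in wild-type enrichment, 796.95 to 8081.84 in cbp+/- standard cages and 855.17 to 939.39 in cbp+/- enrichment. All 14 markers were higher in cbp+/- than in wild-type mice in standard cages (median 0.19, 53.7% of all probe sets higher), and 3 of 14 in enrichment (median -0.13, 41.7% of all higher).

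Over all 16 arrays, which fall into sets, Igf2 followed the choroid plexus level with Pearson r = 0.80 and Spearman rho = 0.21 (permutation p = 0.0256 and 0.443, adjusted over 20 relations 0.249 and 0.943). Without cbp+/- standard-cage replicate 3 and wild-type enriched replicate 1, the arrays farthest from the median level, that r was 0.059. With the level of 17 meningeal and fibroblast markers Igf2 had r = 0.67 and rho = 0.69 (permutation p = 0.00551 and 0.00433, adjusted 0.110 and 0.0866), and r was 0.68 without the 2 farthest arrays, cbp+/- enriched replicate 2 and wild-type standard-cage replicate 1.

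The same relations were computed within the set of 10 arrays. There Igf2 followed the choroid plexus level with Pearson r = 0.27 (Spearman rho = 0.19, permutation p = 0.446 and 0.608, adjusted 0.679 and 0.810), and r was 0.23 without the 2 arrays farthest from the median level. Its relation to the meningeal level had r = 0.64 and rho = 0.62 (permutation p = 0.0426 and 0.0598, adjusted over the 20 relations 0.646 and 0.570). Without cbp+/- enriched replicate 2 and wild-type standard-cage replicate 1, that r was -0.00088, so within this set the relation rested on those arrays. The r of 0.68 found after leaving the same 2 out of all 16 arrays kept cbp+/- standard-cage replicate 3, which lies outside this set. That array had the highest Igf2 signal (8.54) and a meningeal level of 0.11. The relation without that array as well was not computed. Of the 20 relations, 0 had an adjusted p under 0.05 over all arrays or within this set. The part of these cells' RNA in the Igf2 difference was not tested.

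**Figure D3:**
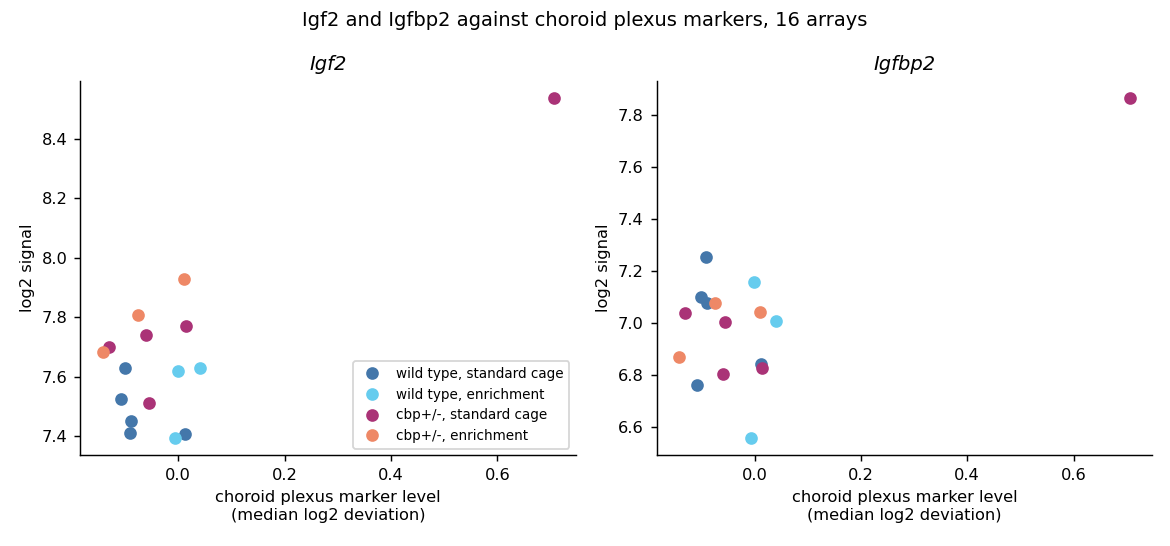
Log2 signal of Igf2 and Igfbp2 (vertical axes) against the level of 14 choroid plexus markers (horizontal axis, median log2 deviation from each marker's mean over arrays); each point is 1 of the 16 arrays, coloured by group. The cbp+/- standard-cage array at a level of 0.71 carries the highest value of both genes, at 8.54 and 7.87.

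Among the binding proteins, Igfbp6, which prefers Igf2 as its ligand, had the highest housing difference over all 16 arrays. It read 7.28, 7.48, 7.43, 7.13 and 7.62 in wild-type standard cages against 7.96, 7.62 and 7.38 in enrichment. In cbp+/- mice it read 7.23, 7.05, 7.30, 6.82 and 7.62 against 7.52, 7.59 and 7.85. In wild-type mice 2 of 3 enriched arrays lay above every standard-cage array, and in cbp+/- mice 1 of 3 did. The log2 difference was 0.27 (SE 0.17, limma adjusted p = 0.418) in wild-type mice, 0.45 (SE 0.17, unadjusted p = 0.0169, limma adjusted p = 0.999) in cbp+/- mice and 0.36 averaged (SE 0.12, unadjusted p = 0.00873, limma adjusted p = 0.173).

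The Igfbp6 difference was not alike in the set of 10 and the set of 4 arrays. Within the set of 10 arrays it was 0.49 in wild-type and 0.52 in cbp+/- mice, and there the averaged value of 0.51 passed the test (limma adjusted p = 0.0285). That comparison called 1941 of all 21780 probe sets there, 1309 of them higher with enrichment. Within the set of 4 arrays, with 1 array a group, the Igfbp6 difference was -0.24 in wild-type and 0.23 in cbp+/- mice. With single arrays, a difference between the sets cannot be told from the scatter between arrays. Leaving out wild-type enriched replicate 1 gave 0.11 in wild-type mice, and leaving out the replicate 3 gave 0.40. The genotype difference averaged -0.092 (SE 0.12, limma adjusted p = 0.999).

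Igfbp5, a binding protein that associates with extracellular matrix, read 8.79, 8.70, 8.88, 8.59 and 8.15 in wild-type standard cages against 8.54, 8.37 and 8.09 in enrichment. In cbp+/- mice it read 8.57, 8.62, 8.91, 8.36 and 7.91 against 8.18, 8.30 and 8.28. The low standard-cage value in each genotype stood on replicate 5, and the groups overlapped. The log2 difference was -0.29 in wild-type and -0.22 in cbp+/- mice (SE 0.19 each) and -0.25 averaged (SE 0.14, limma adjusted p = 0.322). It was -0.24 and -0.27 within the set of 10 arrays. The set of 4 gave -0.058 in wild-type mice and 0.37, the opposite direction, in cbp+/- mice. With the replicate number as a block the averaged value was -0.45 (limma adjusted p = 0.0390). That block called 326 of all 21780 probe sets. Same-numbered pools of the housings did not deviate together, so the block does not pair them and no conclusion is drawn from this call. The Igfbp5 genotype difference averaged -0.11 (SE 0.14), with cbp+/- lower in 6 of 8 pairs, a count whose share over all probe sets was not computed.

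Igfbp4, whose complexes are opened by the protease PAPP-A, read 8.11, 8.09, 8.89, 8.29 and 8.12 in wild-type standard cages and 8.07, 8.25 and 7.41 in enrichment. In cbp+/- mice it read 7.86, 7.998, 8.28, 7.80 and 7.87 in standard cages and 7.80, 7.73 and 7.97 in enrichment. In standard cages 4 of 5 cbp+/- arrays lay below every wild-type array. The genotype difference there was -0.34 (SE 0.17, unadjusted p = 0.0675, limma adjusted p = 1.00), and it was -0.19 without wild-type standard-cage replicate 3.

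In enrichment the Igfbp4 genotype difference was -0.075 (SE 0.22). Single arrays set its size and direction: without the low wild-type replicate 3 the difference was -0.33, and without wild-type replicate 2 it was 0.096. It was -0.39 within the set of 10 arrays and 0.56 within the set of 4. Averaged over the housings, Igfbp4 differed by -0.21 (SE 0.14, limma adjusted p = 0.999), lower in cbp+/- mice in 7 of 8 pairs (at least 7 for 5.12% of all probe sets). The averaged value within the set of 10 arrays was -0.34 (unadjusted p = 0.000502, limma adjusted p = 0.893). The housing difference was -0.39 (SE 0.20) in wild-type mice, -0.14 without enriched replicate 3, -0.0073 within the set of 10 arrays and -0.71 within the set of 4. Its value in cbp+/- mice was -0.13 (SE 0.20), -0.12 within the set of 10 arrays and 0.092 within the set of 4.

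Igfbp2, a binding protein made by the choroid plexus and glia, read 6.84, 6.76, 7.10, 7.25 and 7.08 in wild-type standard cages, 7.01, 7.16 and 6.56 in wild-type enrichment, 6.83, 6.80, 7.87, 7.003 and 7.04 in cbp+/- standard cages and 7.08, 7.04 and 6.87 in cbp+/- enrichment. Its highest value, 7.87, stood on the array with the highest choroid plexus level. The housing differences were -0.10 and -0.11 (SE 0.21 each) in wild-type and cbp+/- mice. They were 0.075 without wild-type enriched replicate 3 and 0.078 without cbp+/- standard-cage replicate 3, so Igfbp2 had no settled direction with housing. The set of 10 arrays gave 0.13 and 0.18, and the set of 4 gave -0.52 and -0.17.

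Vegfa is the main angiogenic ligand and a target of the hypoxia-inducible factors. It was higher in cbp+/- mice in 8 of 8 same-numbered pairs, as were 1.02% of all probe sets. It read 7.62, 7.63, 7.53, 7.70 and 7.44 in wild-type standard cages against 7.94, 7.80, 7.54, 7.79 and 7.57 in cbp+/- standard cages. In enrichment it read 7.68, 7.72 and 7.55 against 7.91, 7.87 and 7.68. The groups overlapped in both housings, and 3 of 5 and 2 of 3 cbp+/- arrays lay above every wild-type array. The log2 difference was 0.14 in standard cages (SE 0.080, limma adjusted p = 1.00), 0.17 in enrichment (SE 0.10, limma adjusted p = 0.927) and 0.16 averaged (SE 0.065, unadjusted p = 0.0292, limma adjusted p = 0.999). Leaving out single arrays kept the averaged value between 0.13 and 0.19, and it was 0.19 within the set of 10 arrays and 0.13 within the set of 4.

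**Figure D4:**
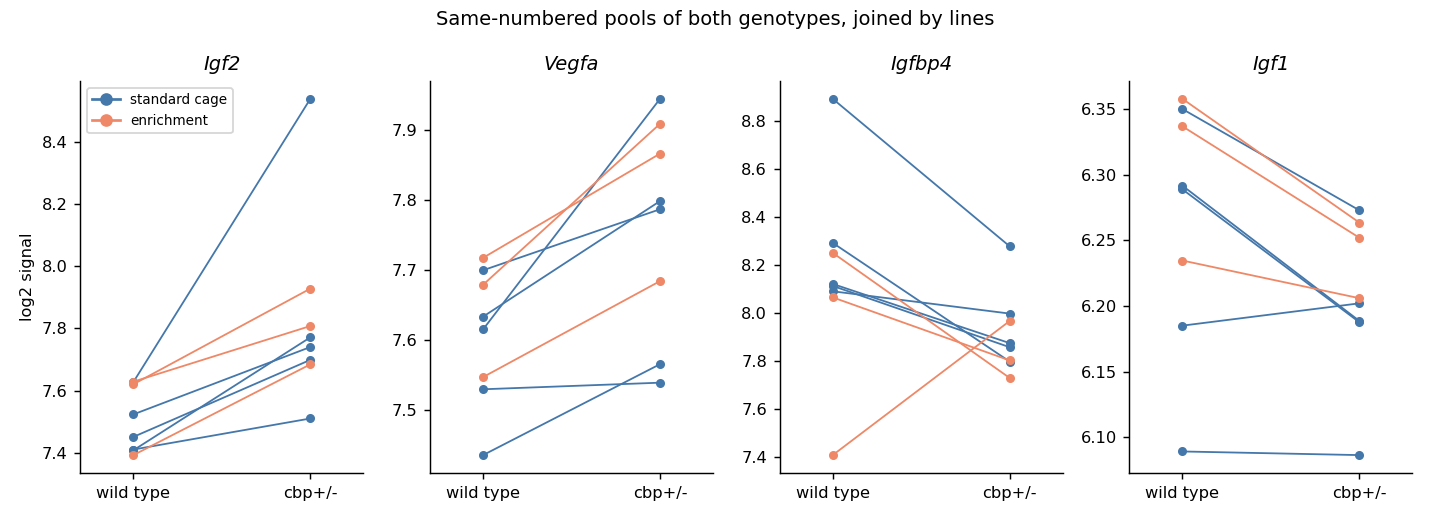
Log2 signal (vertical axis) of Igf2, Vegfa, Igfbp4 and Igf1 in same-numbered wild-type and cbp+/- pools (points), joined by a line for each of the 8 pairs and coloured by housing. The lines of Igf2 and Vegfa go up in 8 of 8 pairs, as for 1.02% of all probe sets. Those of Igfbp4 and Igf1 go down in 7 of 8, where 5.12% of all probe sets went down in at least 7.

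Endothelial and pericyte markers stood slightly higher in cbp+/- mice too: 11 of 14 had a positive averaged genotype difference (median 0.059), where 43.3% of all probe sets were higher (median -0.0095). Their level ran from -0.19 to 0.10 in wild-type standard cages, -0.13 to 0.022 in wild-type enrichment, -0.0078 to 0.067 in cbp+/- standard cages and -0.024 to 0.069 in cbp+/- enrichment, and their part in the Vegfa values was not tested. With enrichment Vegfa differed by 0.065 in wild-type (95% interval -0.13 to 0.26) and 0.093 in cbp+/- mice (95% interval -0.10 to 0.29), and neither passed the test. These values were 0.049 and 0.044 within the set of 10 arrays and 0.11 and 0.12 within the set of 4.

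Vegfb, a ligand of Flt1, read 8.41, 8.50, 8.63, 8.77 and 8.74 in wild-type standard cages, 8.63, 8.55 and 8.50 in wild-type enrichment, 8.37, 8.59, 8.50, 8.50 and 8.61 in cbp+/- standard cages and 8.58, 8.48 and 8.76 in cbp+/- enrichment. All groups overlapped. Its housing differences were -0.052 (SE 0.086) in wild-type and 0.093 (SE 0.086) in cbp+/- mice. Values of 0.028 and 0.047 were found within the set of 10 arrays, and -0.24 and 0.15 within the set of 4. The averaged genotype difference was -0.024 (SE 0.061).

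**Figure D5:**
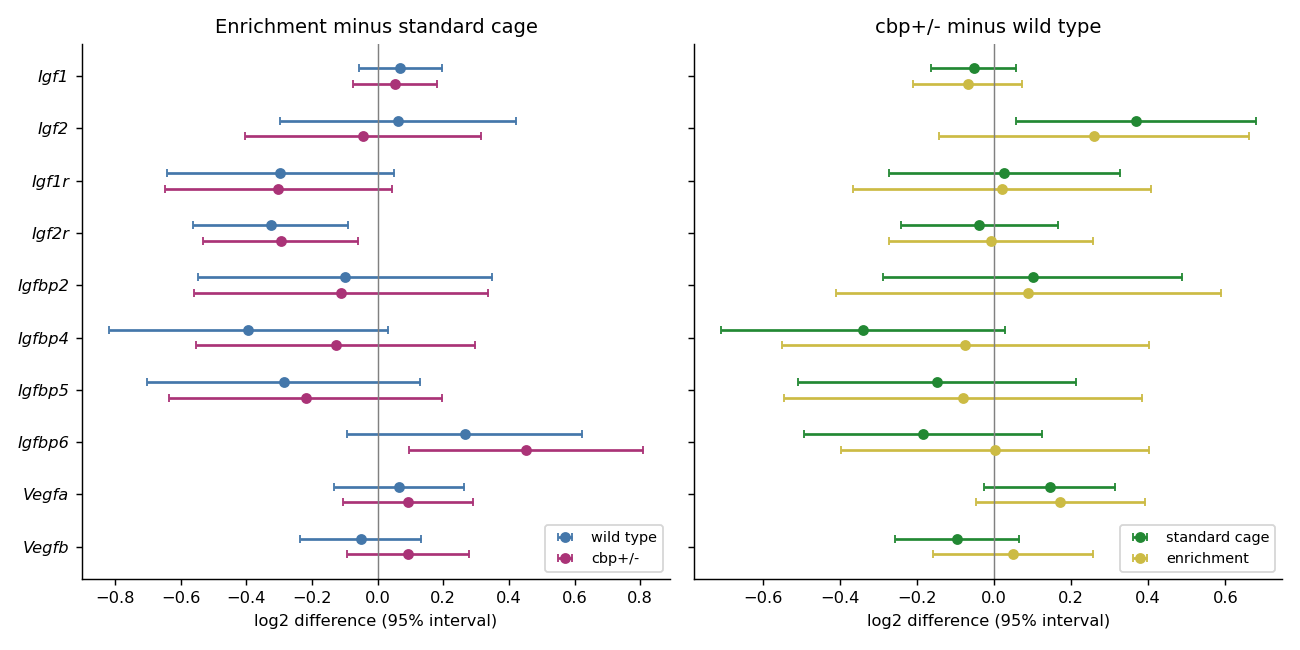
Log2 differences (horizontal axes) of the 10 genes with 95% intervals from the fit over 16 arrays: enrichment minus standard cage in each genotype, and cbp+/- minus wild type in each housing. The housing intervals exclude 0 for Igf2r in both genotypes and for Igfbp6 in cbp+/- mice, and the genotype interval excludes 0 for Igf2 in standard cages, before adjustment over the array.

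The housing effect was not shown to differ between genotypes for any of the 10 genes. The interaction of genotype and housing ran from -0.11 for Igf2 to 0.27 for Igfbp4, and 0 of 10 had an unadjusted p under 0.05, against 2.66% of all probe sets. In the order of group means, neighbouring groups overlapped for 8 of the 10 genes. The exceptions were Igf2, whose cbp+/- enriched arrays lay above the wild-type enriched arrays, and Igf2r, whose cbp+/- standard-cage arrays lay above the wild-type enriched arrays. The Igf2 separation held for 3.53% of all probe sets. No share over all probe sets was computed for the Igf2r one, for neighbouring groups in general or for the partial separations given above, so this count is descriptive only.

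The wider IGF list, 28 of 29 genes measured and the members included, lay on both sides: 15 were higher and 13 lower with enrichment in wild-type mice, 11 and 17 in cbp+/- mice, and 0 passed. Irs4, an insulin receptor substrate, differed by 0.23 (SE 0.063, limma adjusted p = 0.128) in wild-type mice and by -0.13 (SE 0.044, limma adjusted p = 0.999) between genotypes. Irs4 was dim, with a mean log2 signal of 5.67, where Igf1, at the 43.1 percentile of all probe sets, had 6.24. In wild-type mice the interquartile range of log2 signal was 2.30 to 2.43 on enriched and 2.51 to 2.59 on standard-cage arrays. The part of this narrower range in the values of dim genes was not tested. The insulin receptor and its adaptors showed small differences that did not pass the test. Insr differed by -0.064 in wild-type and 0.11 in cbp+/- mice with enrichment (SE 0.16 each), Irs1 by -0.16 and -0.12 (SE 0.14 each), and Irs2 by -0.19 and -0.096 (SE 0.19 each).

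The genes of the PI3K-Akt arm, through which Igf1r signals, lay mostly on the lower side with enrichment. Of 16 measured of 19, 13 had negative values in wild-type mice (median -0.23), 14 in cbp+/- mice (median -0.14) and 15 in the average (median -0.17), and 0 passed the test. Of all probe sets 41.6%, 45% and 41.1% were negative, and the medians of the array were negative too once dim probe sets were left out, at -0.068, -0.026 and -0.046. Rptor, the mTORC1 scaffold, differed by -0.40 (SE 0.13, limma adjusted p = 0.160) in wild-type and -0.29 (SE 0.13, limma adjusted p = 0.999) in cbp+/- mice. Tsc1, an inhibitor of mTORC1, differed by -0.24 (SE 0.072, limma adjusted p = 0.154) in wild-type mice, and its partner Tsc2 by -0.29 (SE 0.13, limma adjusted p = 0.999) in cbp+/- mice. The list thus holds activators and inhibitors on the same side. Between genotypes, 7 of 16 were higher and 9 lower in the average (median -0.014), led by Foxo3 at -0.12 and Pik3cb at -0.065.

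The wider VEGF list had 20 of 22 genes measured, of which 8 were higher and 12 lower with enrichment in wild-type mice and 11 and 9 in cbp+/- mice, with 0 passing. Among the receptors, Flt1 differed by -0.24 and -0.092, Kdr by 0.14 and 0.051, and the coreceptor Nrp1 by -0.28 and -0.11 in wild-type and cbp+/- mice. The second neuropilin, Nrp2, had the smallest p of the list in both (-0.38 and -0.23, limma adjusted p = 0.160 and 0.999), followed by the adaptor Sh2d2a in wild-type (0.16) and the phospholipase Plcg1 in cbp+/- mice (-0.17). Sh2d2a was dim, with a mean log2 signal of 5.27. Of the genotype values, that of Dll4, a Notch ligand of endothelial tip cells, was 0.14 averaged over the housings (unadjusted p = 0.0360, limma adjusted p = 0.999).

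Hypoxia-responsive genes, with which Vegfa is usually grouped, gave 7 higher and 12 lower of 19 measured (20 listed) in wild-type mice and 8 and 11 in cbp+/- mice, with 0 passing. The glycolytic Pgk1 differed by 0.30 (SE 0.12) in wild-type mice, the peptide gene Adm by 0.26 and 0.29 (SE 0.14 each), and Ankrd37 by 0.16 (SE 0.062) in cbp+/- mice. Adm was dim, with a mean log2 signal of 5.55. Ldha, a lactate dehydrogenase subunit, was the leading gene between genotypes, at 0.17 (SE 0.083, limma adjusted p = 0.999), followed by Ankrd37 at 0.070.

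Profiles over the 16 arrays were compared after subtracting the mean of each of 4 array sets. That put wild-type enriched replicate 3, a set of 1 array, at 0 for every gene. The genes with the most similar profiles were named without reference to function. For Igf2r they were Stxbp5, Cyth1 and Atrn (Pearson r 0.95, 0.95 and 0.94), whose plain r was 0.46, 0.61 and 0.54. For Igf1r they were Carm1, Tln2 and Baiap2 (0.97 each; plain r 0.96, 0.96 and 0.91). For Igfbp6 they were Cyp26a1, Serinc2 and Six5 (0.94, 0.91 and 0.91; plain r 0.75, 0.57 and 0.57). The likeness of the receptors' neighbours thus held with and without the set means for Igf1r, whereas that of Igf2r was smaller on the plain values.

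For Igf2 the most similar genes were Olfr987, Tmem143 and Aup1 (0.93, 0.89 and 0.88, plain r 0.76, 0.80 and 0.85). Those of Vegfa were R3hcc1, Fbxo27 and Fgb (0.87, 0.86 and 0.83, plain r 0.79, 0.80 and -0.050). Igf1 was nearest Prelp, Sh2d1b2 and Ect2l (0.88, 0.84 and 0.84, plain r 0.67, 0.46 and 0.66). Igfbp2 was nearest Slc35c1, Chst2 and P2ry10 (0.90, 0.87 and 0.87, plain r 0.85, 0.83 and 0.61). Igfbp4 was nearest Cmtm4, Stmn1 and Chn2 (0.87, 0.86 and 0.84, plain r 0.59, -0.17 and 0.39). Igfbp5 was nearest Epb41l3, Gpr158 and Trim37 (0.93, 0.90 and 0.90, plain r 0.88, 0.92 and 0.96). Vegfb was nearest Krtap19-3, Ctif and Ahdc1 (0.91, 0.90 and 0.86, plain r 0.34, 0.46 and 0.26). All points share their arrays and each gene's neighbours were picked as the highest of all genes, so these coefficients describe the arrays and carry no test.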

How the data were processed

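Hippocampal RNA was measured on 16 arrays, 5 or 3 pools for each genotype and housing, grouped by the labels. Signals were normalised by the authors with RMA in GeneSpring GX, per the submitters' processing notes and the labels' protocols, and deposited as linear intensity values for 28815 probe sets; the labels do not say whether a baseline was also subtracted. Of these probe sets, 21780 carried exactly 1 symbol in the platform table, 1605 carried several and 5430 were not in that table. The number of arrays limits the precision.

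The deposited intensities were taken to log2, and limma 3.58.1 in R 4.3.3 (lmFit, eBayes) fitted 4 group means over all 16 arrays with 12 residual degrees of freedom, with 7 comparisons and Benjamini-Hochberg adjustment over the 21780 probe sets at 0.05. Each limma p-value sets a difference against the spread between pools of 4 animals within a group. That spread also holds the differences between array sets. Relations across arrays used permutation tests, which shuffled the arrays without regard to group or array set. The fit was tested on simulated data with independent noise. These data had no array sets and no paired pools, so that test does not cover either.

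Same-numbered pools of the 2 genotypes deviated together within a housing (r 0.257 to 0.767 in all 8 pairs), so the numbers pair the genotypes. Same-numbered pools of the 2 housings did not (r -0.394 to 0.365). The SEs and p-values given for genotype come from the fit of 4 group means, which leaves this pairing out. With a block for each pair, 2554 of all 21780 probe sets had an unadjusted limma p under 0.05 for averaged genotype. Without it 852 did, and 0 passed after adjustment in either fit. Alternatives were quantile normalisation, median centring, an added constant of 16, a filter on dim probe sets, blocks, array weights, subsets of arrays and leaving out each array. Members, gene lists and tests were chosen with earlier results of these data known; the 3-set block, the values in the set of 4 arrays and the pair block were added after seeing the data. Named genes were all 10 members and, from each wider list, those passing or else the 2 with the smallest p in the housing comparisons and the averaged genotype comparison, with Flt1, Kdr, Nrp1, Insr, Irs1 and Irs2 always named.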

Additional observations from a re-analysis of the deposited data

Results flagged for a closer look

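In the 20 combinations of a group of 5 arrays and a gene, 3 single values stood apart from the rest of their group by a gap above Dixon's limit of 0.71 of the group's range. That limit is passed about 1 in 20 times by independent, normally distributed values, whereas these genes share their arrays. The share of all probe sets past it was not computed, so no excess in these genes is shown. Igf2 read 8.54 on cbp+/- standard-cage replicate 3, with a gap of 0.746 of the range. Igfbp2 read 7.87 on the same array, with a gap of 0.777. Igfbp4 read 8.89 on wild-type standard-cage replicate 3, with a gap of 0.749. Both arrays form the set of 2 arrays described above. The array with the high Igf2 and Igfbp2 values is also the one with the highest choroid plexus marker level, and the part of that tissue in these values was not tested.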

How the results depend on the processing

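Of 1119 alternative values of the differences given above, 1066 kept their direction and 53 turned it: 43 in fits with a test, 0 of them past the threshold, and 10 of the 40 values from the set of 4 arrays, which has 1 array a group and no test. Of those that kept it, 13 passed the threshold only under the alternative; none lost a call, since the limma fit over all arrays made none.

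The number of the 10 genes passing the averaged housing comparison went from 0 to 2 with the replicate block (Igf2r and Igfbp5), to 2 on the set of 10 arrays alone (Igf2r and Igfbp6) and to 4 with array weights (Igf1r, Igf2r, Igfbp5 and Igfbp6). The housing numbers do not pair, and on the replicate block 326 of all probe sets passed, on the set of 10 arrays 1941. Array weights ran from 0.26 for wild-type enriched replicate 3 to 8.63 for cbp+/- enriched replicate 1, and 6167 of all 21780 probe sets passed for averaged housing. With these weights 1 gene passed for housing in wild-type mice (Igf2r), against 5254 of all probe sets, and 1 in cbp+/- mice (Igfbp6), against 1039. For genotype in enrichment 2 passed (Igfbp4 and Vegfa), against 2474 of all, and 1 for averaged genotype (Vegfa), against 152. The block of genotype pairs within a housing changed no call. Of the 20 relations over all arrays 0 to 1 passed when single arrays were left out, with 1 without wild-type standard-cage replicate 4.

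Housing in wild-type mice turned direction for Igf1 (-0.0069 with quantile normalisation, -0.0027 with median centring, -0.045 with array weights), Igf2 (-0.0083 with median centring, -0.037 with the replicate block), Vegfa (-0.0064 with median centring) and Igfbp4 (0.033 with array weights). It turned for Vegfb (0.031 with quantile normalisation, 0.0094 with the replicate block, 0.022 with 4 array sets as a block, 0.028 on the set of 10 arrays, 0.016 with array weights) and Igfbp2 (0.19 with 4 array sets, 0.13 on the set of 10 arrays, 0.24 with array weights, 0.014 with 3 array sets). Housing in cbp+/- mice turned for Igf2 (0.063 with 4 array sets, 0.19 on the set of 10 arrays, 0.052 with array weights, 0.066 with 3 array sets) and Igfbp2 (0.18, 0.17 and 0.0025 on the set of 10 arrays, with array weights and with 3 array sets). The averaged genotype value turned for Igf1r (-0.0065 with quantile normalisation, -0.068 on the set of 10 arrays, -0.11 with array weights), Igf2r (0.016 with array weights) and Igfbp2 (-0.049 on the set of 10 arrays, -0.028 with array weights).

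The turned values of the set of 4 arrays were, for housing, Igf2 (-0.058) and Igfbp6 (-0.24) in wild-type mice, Igfbp4 (0.092) and Igfbp5 (0.37) in cbp+/- mice, and Igfbp5 (0.15) and Igfbp6 (-0.0021) averaged. For genotype they were Igfbp4 in enrichment (0.56) and Igfbp4 (0.16), Igfbp6 (0.24) and Vegfb (0.063) averaged.

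Leaving out single arrays gave, for housing, -0.23 to 0.075 for Igfbp2 in wild-type mice, -0.19 to 0.078 for Igfbp2 and -0.13 to 0.13 for Igf2 in cbp+/- mice; for averaged genotype, -0.031 to 0.056 for Igf1r, -0.067 to 0.0088 for Igf2r, -0.00024 to 0.16 for Igfbp2 and -0.061 to 0.0063 for Vegfb; and for genotype in enrichment, -0.33 to 0.096 for Igfbp4. Apart from the stated arrays and settings the cause of these shifts was not tested. The alternative of a lower-signal probe set was not run, because each gene has 1 probe set. With 3 or 5 pools a group, differences near the SE of 0.1 to 0.2 that most of these genes had could not be told from 0.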
